A study of Mus musculus with 8 samples.

Results

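The 10 genes described here belong to the sterol sensing and export pathway run by the liver X receptors (LXRs), and they were picked by symbol from the 45777 gene rows of the authors' expression table. They are the receptor genes Nr1h3 (LXRα) and Nr1h2 (LXRβ), the transporter genes Abca1, Abcg1 and Abcg4, the lipoprotein receptor gene Scarb1, and Apoe, Srebf1, Mylip and Lpcat3. RNA was sequenced from mouse neural stem cells of the subventricular zone, a stem cell niche of the brain beside the lateral ventricle. The labels describe cells of S1PR1-deficient mice (S1pr1 deletion) and of control mice (WT), each given ApoM-HDL or ApoM+HDL, in 2 samples per combination. S1PR1 is a receptor for sphingosine-1-phosphate, and apolipoprotein M (ApoM) carries that lipid on high-density lipoprotein (HDL). The sources used here do not give the Cre driver or extent of the deletion, the ages of the mice or the time in culture. The labels do not say whether replicates came from separate cultures or animals, so p-values measure the spread between these samples, which may be technical.

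The table names its 8 libraries by code and number (GH, GV, CH and CV, 2 libraries each). C was read as control from its first letter, and G as S1PR1-deficient only by elimination. No label ties H or V to a lipoprotein preparation, so both stay codes and no preparation effect is named. S1pr1 itself had 23.2 and 21.2 CPM (counts scaled to the size of the library) in GH and 22.2 and 22.4 CPM in GV. It had 25.4 and 23.2 CPM in CH and 20.7 and 16.0 CPM in CV. Over both letters this was 22.3 ± 0.824 CPM in the 4 G libraries and 21.3 ± 4.03 CPM in the 4 C libraries (mean ± SD), a log2 difference of 0.08 (SE 0.08, edgeR adjusted p = 0.57). The counts of the targeted gene therefore do not separate the genotypes as coded. A count per gene also does not show which part of a gene was removed. Every direction below is between libraries labelled G and C, with that check not met.

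The libraries held 39619305 to 45698186 gene counts each. All 10 genes passed the filter on low counts, as did 17644 genes in all. Marker values, here and below, are scaled to library totals alone. Of 10 fixed neural stem cell and radial glia markers, 8 exceeded 1 CPM in every library. Of the others, Gfap reached at most 0.832 CPM and Prom1 at most 2.72 CPM. The summed level of that list was 5740 to 5850 CPM in GH and 5710 to 5740 in GV, against 6120 to 6140 in CH and 6110 to 6140 in CV. Microglia and macrophage markers summed to at most 0.293 CPM in any library, and Aif1, Csf1r, C1qa and C1qb were at 0 in all of them.

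LXRs are nuclear receptors that are activated by oxysterols, oxidised forms of cholesterol. As dimers with retinoid X receptors they bind DR4 elements, direct repeats of the motif AGGTCA with a spacer of 4 bases, and raise the transcription of genes that move cholesterol out of cells and that drive fatty acid synthesis. In the brain, ABCA1 lipidates apolipoprotein E made by glial cells, and the resulting particles carry cholesterol between cells.

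Promoter windows of RefSeq (GRCm38.p6, 250 bases before to 50 after each annotated start) were at hand for 7 of the 10 genes, with 12 windows in all. The 2 promoters below are shown because they hold the only DR4-like matches among those windows. Their genes, Abca1 and Srebf1, also had differences of opposite sign between G and C. The Abca1 difference did not pass in every fit, as given below. Both lie on the minus strand and are written 5′ to 3′ on the strand of the gene. Capitals mark the match, which reads on the other strand as GGTTACTACCGGTCA in Abca1 and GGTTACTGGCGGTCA in Srebf1.
Abca1, chr4:53159896-53160145: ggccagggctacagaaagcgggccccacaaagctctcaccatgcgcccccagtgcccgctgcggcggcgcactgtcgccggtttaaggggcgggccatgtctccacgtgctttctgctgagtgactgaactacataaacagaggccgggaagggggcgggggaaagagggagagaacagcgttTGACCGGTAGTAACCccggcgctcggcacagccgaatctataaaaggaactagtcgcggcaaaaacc
Srebf1, chr11:60210472-60210721: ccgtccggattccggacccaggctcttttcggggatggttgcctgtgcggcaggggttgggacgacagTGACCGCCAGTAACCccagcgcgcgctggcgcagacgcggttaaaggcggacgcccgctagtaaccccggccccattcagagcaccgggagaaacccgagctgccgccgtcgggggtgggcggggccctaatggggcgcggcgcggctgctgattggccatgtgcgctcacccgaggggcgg
The letters searched on both strands were GGTNANNNNNGGTCA, a relaxed DR4 that was written so as to admit the long-known Abca1 element. They were found in 68 of 32851 windows of the same length (0.207%). The strict repeat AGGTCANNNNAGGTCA, whose matches the relaxed letters also cover, was in 5 windows (0.0152%) and in none of the 12. The sterol regulatory element TCACNCCAC was in 408 windows (1.24%) and likewise in none of the 12. The Abca1 match lies 67 to 53 bases before the annotated start of its window. The 5′ end of the annotated gene lies further upstream, at chr4:53159988, so the match is within the span of the gene. The Srebf1 match lies 182 to 168 bases before one of 3 annotated starts. Gene counts do not separate those starts, and the matches are letters in a window, not measured binding.

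Per kilobase of exon, the levels of the 10 genes spanned a wide range. Apoe was highest at a mean of 99.5 CPM per kb over the 8 libraries. Scarb1 followed at 31.6, Lpcat3 at 16.2, Nr1h2 at 15.2 and Srebf1 at 12.1 CPM per kb. The ranges over libraries of Lpcat3 (15.1 to 17.1), Nr1h2 (12.3 to 19.2) and Srebf1 (7.98 to 16.3) overlapped. Abca1 at 1.48, Abcg4 at 1.08, Mylip at 0.692 and Nr1h3 at 0.556 CPM per kb came next, with ranges over the libraries that overlapped between neighbours in that order, and Abcg1 was lowest, below all of Nr1h3's values, at 0.0291 CPM per kb. Nr1h2 was thus the LXR gene with the higher level, and Abca1 the efflux transporter gene with the highest mean.

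**Figure D1:**
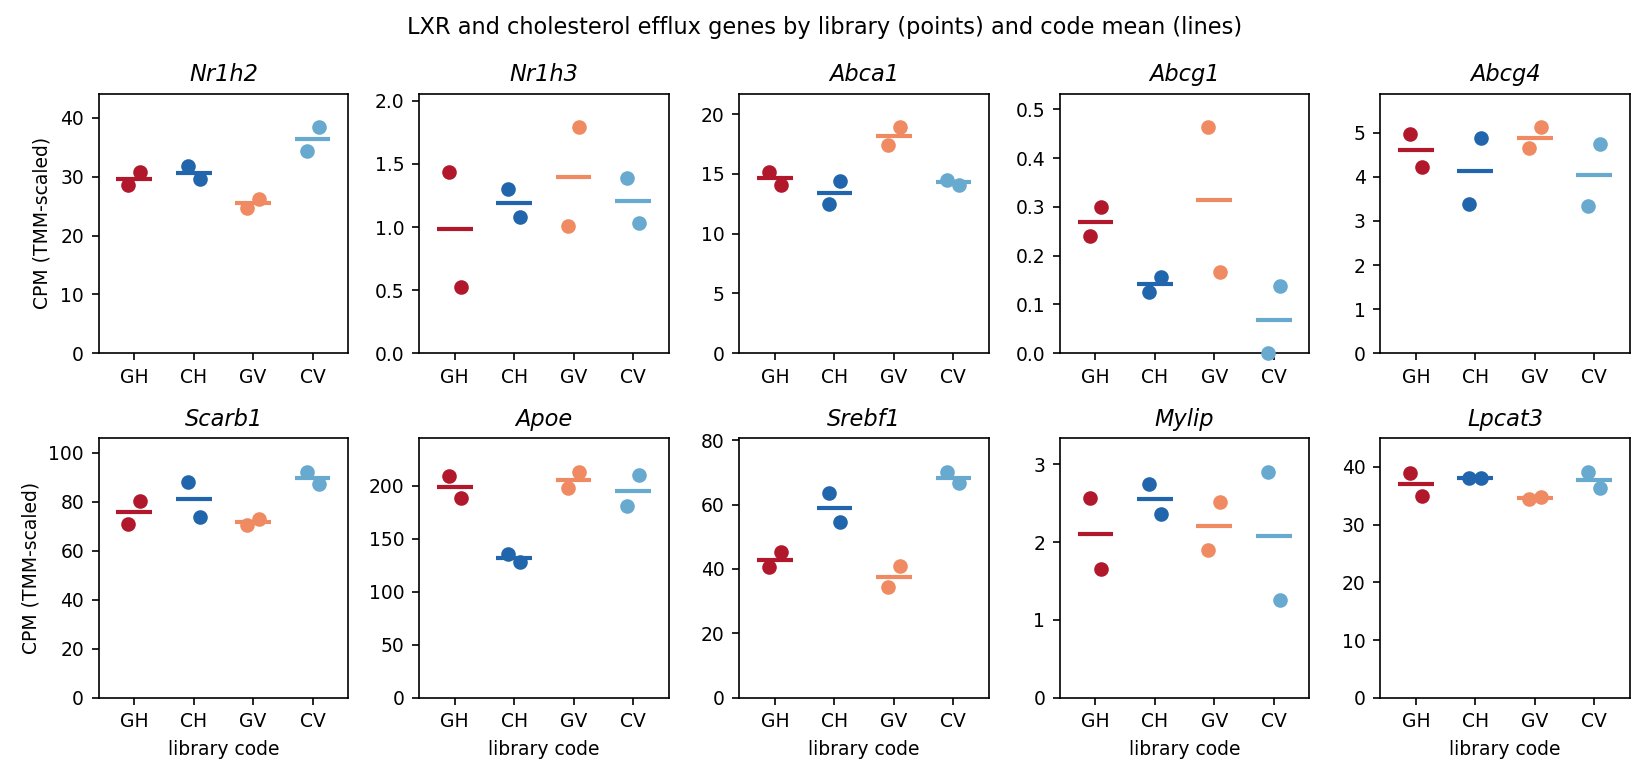
TMM-scaled CPM (y axes, each starting at 0) of the 10 genes in the 8 libraries, by library code (x axis). Points are libraries and lines are the mean of 2. Srebf1 is below 46 CPM in all G libraries and above 54 CPM in all C libraries, and Apoe stands low only in CH, at 136 and 128 CPM.

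The receptor genes differed in level and in how well they could be measured. Nr1h2, which encodes the broadly expressed LXRβ, had 28.6 and 30.8 CPM in GH and 24.7 and 26.3 CPM in GV, against 31.8 and 29.6 CPM in CH and 34.4 and 38.4 CPM in CV. GV was the lowest group and CV the highest, with no overlap between them, while GH and CH overlapped. Nr1h2 was lower in GV than in CV by a log2 difference of -0.52 (SE 0.09, edgeR adjusted p = 0.0013), and in GH against CH the difference was -0.05 (SE 0.09, edgeR adjusted p = 0.88). Across genes, differences between GV and CV followed the base composition of the transcripts, as described next. With an offset for that trend the call did not hold (log2 difference -0.22, edgeR adjusted p = 0.084, and -0.02 in GH against CH). Over both letters the difference was -0.28 (SE 0.06, edgeR adjusted p = 0.0075), or -0.12 with the GC offset (adjusted p = 0.17), and it missed the threshold without GH1 (adjusted p = 0.053). Nr1h3, whose product LXRα is best known from liver and macrophages, had 1.44 and 0.526 CPM in GH and 1.01 and 1.79 CPM in GV, against 1.30 and 1.08 CPM in CH and 1.39 and 1.03 CPM in CV. Its groups overlapped throughout, and its log2 difference over both letters was -0.03 with a 95% interval of -0.71 to 0.65, or 0.11 (95% interval -0.59 to 0.81) with the GC offset.

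Across genes, the differences followed the GC content of the transcripts in all comparisons but that of GH against CH. Over 10141 well-expressed genes, Spearman's rho between the log2 difference and the GC share of the longest transcript was -0.71 for GV against CV and -0.11 for GH against CH, given here as a description across genes, which share their libraries. It was -0.58 for CH against CV, 0.39 for GH against GV and 0.66 for the interaction of genotype and letter. Transcript length showed a trend as well, with a rho of -0.54 for GH against GV, 0.32 for GV against CV and -0.32 for the interaction, and of 0.01 for GH against CH and 0.04 for CH against CV. The median log2 difference between GV and CV was 0.38 in the bin of lowest GC and -0.30 in the bin of highest GC. Several of the 10 genes lie at the GC-rich end, Nr1h2 at 60.6%, Apoe at 59.5% and Srebf1 at 58.4%, above 97.3%, 95.4% and 92.8% of those genes. The share of counts from small structured RNAs also differed between the codes, at 3.34% and 3.32% in GH and 1.99% and 2.30% in GV, against 4.67% and 4.27% in CH and 5.06% and 4.22% in CV. Its part in the results was not tested. A second fit with an offset for GC content, chosen after seeing the data, is therefore given beside the first for those results of the 10 genes that it moves most. The cause of the GC trend was not tested, and the offset takes the trend out whatever its cause.

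**Figure D2:**
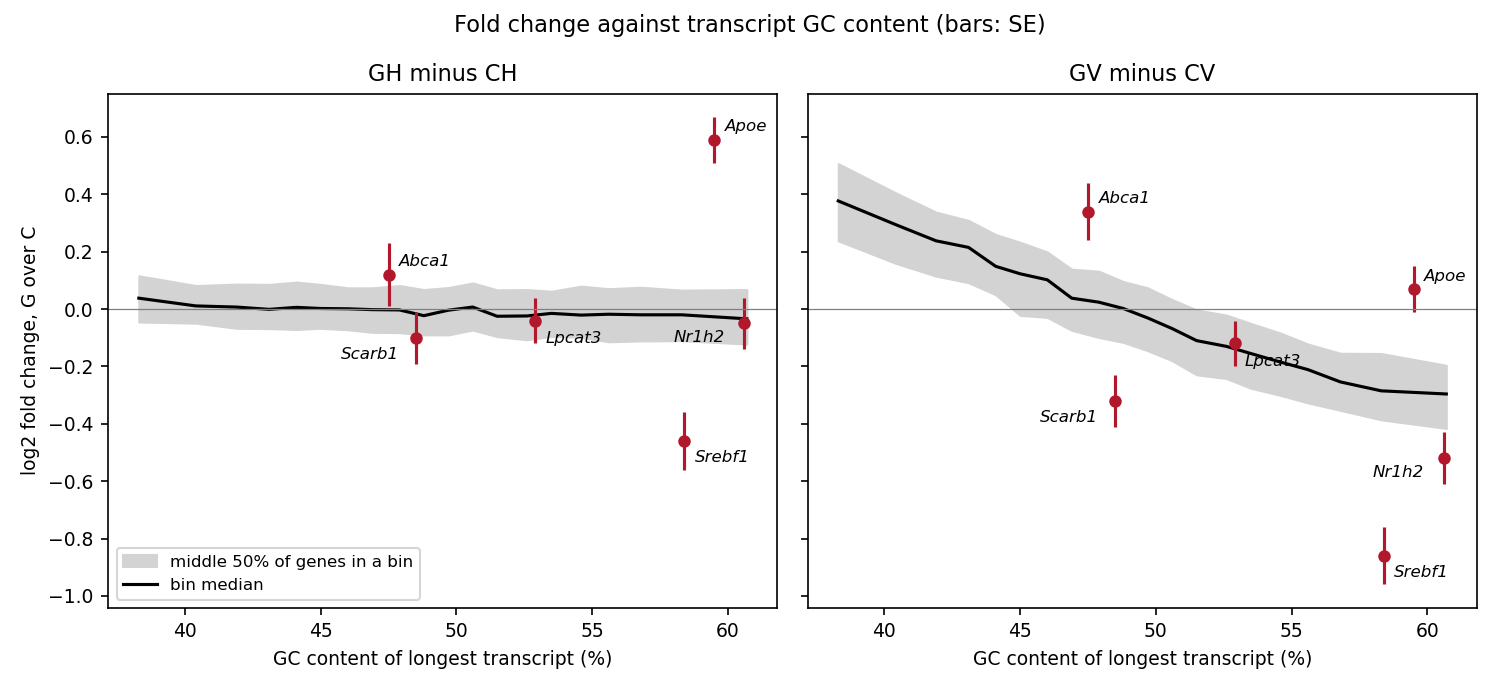
Log2 difference, G over C (y axis), against the GC content of the longest transcript in percent (x axis), for GH against CH (left) and GV against CV (right). The line is the median of 20 bins of genes, the grey band the middle 50% of each bin, and red points are single genes with their SE. On the right the bin medians run from 0.38 to -0.30, and Srebf1 at -0.86 lies below genes of like GC content while Apoe at 0.07 lies above them.

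Of the 10 genes, 2 passed the test between GH and CH (edgeR adjusted p below 0.05, against 1.81% of all genes tested), and they moved in opposite directions. Between GV and CV 4 passed, 1 higher and 3 lower, where 25% of all genes tested passed. Over both letters 5 passed, 2 higher and 3 lower, against 19.2% of all genes. With the GC offset these counts were 2 (background 2.51%), 3 (background 10.1%) and 2 (background 10.7%). The median log2 difference of the 10 genes was -0.05 in GH against CH and 0.08 in GV against CV, beside 0 and -0.02 over all genes tested. Under the GC offset it was -0.02 and 0.23, beside 0.01 and 0.02. These medians include Abcg1, whose limit is given below, and Nr1h3 and Mylip, whose intervals were wide. They are therefore not used as support for a shift of the group. Without TMM scaling, the calls over all genes were 2928 higher and 1539 lower in GV against CV, and with it they were 2051 higher and 2357 lower. The G and C levels (4 libraries each) did not overlap for 2 of the 10 genes, Srebf1 and Abcg1, against 13.1% of all genes. Abcg1 reached the minimum count of 10 of the filter only in G libraries, where it was higher. Its lack of overlap was favoured by that filter and is not used as support. In bulk RNA, fewer cells of a type and less RNA per cell cannot be told apart.

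Srebf1 encodes SREBP-1, the transcription factor that drives genes of fatty acid synthesis, and is itself raised by LXRs in liver. It was lower in G than in C under both letters. It had 40.6 and 45.2 CPM in GH and 34.3 and 40.9 CPM in GV, against 63.5 and 54.5 CPM in CH and 70.1 and 66.6 CPM in CV. Every G library was below every C library, with means of 40.2 ± 4.48 CPM in G and 63.7 ± 6.66 CPM in C (SD, n = 4 libraries each). Over both letters Srebf1 fell by 0.66 on the log2 scale (SE 0.07, edgeR adjusted p = 0.00017), to a fold of 0.632 of the C level, and by 0.51 with the GC offset (SE 0.06, adjusted p = 0.00045). In GV against CV it fell by 0.86 (SE 0.10, adjusted p = 0.00021). Here the GC offset gave -0.59 (SE 0.08, adjusted p = 0.0013). In GH against CH it fell by 0.46 (SE 0.10, adjusted p = 0.038). That last call was lost with the number of the library as a block and with library totals in place of TMM, and without GH1, GH2, CH1, CV1 or CV2 (adjusted p 0.019 to 0.37 over the 8 omissions). The GV and GH differences were not shown to differ from each other, with an interaction of 0.40 on the log2 scale (95% interval 0.10 to 0.71, adjusted p = 0.098), or 0.16 with the GC offset (95% interval -0.09 to 0.42, adjusted p = 0.55). Marker sums were likewise lower in every G library than in every C library for the neural stem cell list, given above, and for the mature astrocyte list (488 to 498 CPM in GH and 520 to 547 in GV, against 570 to 589 in CH and 628 to 642 in CV). Single genes of these lists went different ways. Of the astrocyte list, Aldh1l1 had 175 to 181 CPM in G and 274 to 331 CPM in C. S100b was higher in every G library (8.72 to 11.1 CPM, against 6.43 to 7.91 in C). Of the stem cell list, Nes (647 to 741 CPM in G, 787 to 813 in C) and Fabp7 (1310 to 1710, against 1750 to 1970) were lower. The other genes of both lists overlapped between G and C, Slc1a3 for example with 1010 to 1130 CPM in G and 914 to 1050 in C. The part of these markers in the Srebf1 difference was not tested.

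Apoe encodes apolipoprotein E, the main carrier of lipid between cells of the brain and an LXR target in macrophages and glia. It had 209 and 188 CPM in GH and 198 and 213 CPM in GV, against 136 and 128 CPM in CH and 181 and 210 CPM in CV. CH stood below the other groups, whose ranges overlapped. Apoe was 1.51-fold higher in GH than in CH (log2 0.59, SE 0.08, edgeR adjusted p = 0.0028), and the call was lost only when GH1 was left out (log2 0.51, adjusted p = 0.073). In GV against CV the log2 difference was 0.07 (95% interval -0.10 to 0.24, adjusted p = 0.57), and with the GC offset it was 0.36 (SE 0.07, adjusted p = 0.011). Over both letters Apoe rose by 0.33 (SE 0.06, adjusted p = 0.0022), and by 0.49 with the GC offset (SE 0.05, adjusted p = 0.00034). The fixed oligodendrocyte lineage list, which includes Olig1, Olig2 and Pdgfra, summed to 1650 to 1690 CPM in GH and 1730 to 1750 in GV, against 1400 to 1490 in CH and 1910 to 1920 in CV. This sum was thus also lowest in CH, and Olig1, Olig2 and Cspg4 make up nearly all of it. Of the 7 markers 4 were above 1 CPM in every library. Pdgfra was not lowest in CH, with 0.956 and 1.26 CPM in GH and 1.36 and 2.03 CPM in GV, against 1.52 and 2.47 CPM in CH and 1.16 and 1.26 CPM in CV, and Sox10 was at or near 0. The members of the astrocyte list, of which 6 of 7 were above 1 CPM in every library, went different ways. Its sum was not lowest in CH, but Slc1a2 was, with 142 and 140 CPM in GH and 196 and 174 CPM in GV, against 116 and 121 CPM in CH and 159 and 151 CPM in CV. The part of either list in the Apoe difference was not tested.

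Abca1 encodes the transporter that loads cholesterol and phospholipid onto lipid-poor apolipoproteins. It had 15.2 and 14.1 CPM in GH and 17.4 and 18.9 CPM in GV, against 12.5 and 14.4 CPM in CH and 14.5 and 14.1 CPM in CV. GV lay above every other library, while GH, CV and CH overlapped. Abca1 was higher in GV than in CV by a log2 difference of 0.34 (SE 0.10, edgeR adjusted p = 0.03). The GC offset left the size almost as it was and took the value past the threshold (0.32, SE 0.10, adjusted p = 0.061), as did leaving out CV1, CV2 or GV2 (adjusted p 0.025 to 0.15 over the 8 omissions). Over both letters the difference was 0.23 (SE 0.07, adjusted p = 0.045). It passed with 1 of the 8 omissions, that of CH2, and not with the GC offset (adjusted p = 0.064) or in DESeq2.

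The other transporter genes of the efflux group were low. Abcg1, whose product passes cholesterol to HDL, was covered by 10 and 12 reads in GH and 21 and 7 in GV, against 5 and 7 reads in CH and 0 and 6 in CV. Only G libraries reached the minimum count of 10 of the filter, so Abcg1 was tested through the group where it was higher. Its G and C levels did not overlap in CPM, but the nearest were 0.167 CPM in GV2 and 0.157 CPM in CH2, with 7 reads each. At this depth the test did not pass in either comparison (edgeR adjusted p = 0.78 for GH against CH and 0.18 for GV against CV). No fold change between G and C is given for Abcg1. Abcg4, a neural relative of Abcg1, had 4.98 and 4.23 CPM in GH and 4.66 and 5.12 CPM in GV, against 3.38 and 4.87 CPM in CH and 3.34 and 4.74 CPM in CV. The groups overlapped, and the log2 difference over both letters was 0.21 with a 95% interval of -0.12 to 0.55. Under the offset it was 0.35 (95% interval -0.01 to 0.71, edgeR adjusted p = 0.21), and in GV against CV it was 0.53 (95% interval 0.02 to 1.04, adjusted p = 0.18), against 0.27 without the offset.

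Scarb1 encodes SR-BI, the cell-surface receptor for HDL, the particle with which these cells were treated. It had 71.1 and 80.4 CPM in GH and 70.7 and 73.1 CPM in GV, against 88.0 and 74.0 CPM in CH and 92.2 and 87.4 CPM in CV. Both GV libraries were below both CV libraries, and GH and CH overlapped. The log2 difference was -0.32 in GV against CV (SE 0.09, edgeR adjusted p = 0.017) and -0.10 in GH against CH (95% interval -0.28 to 0.09). The first call held with the GC offset (-0.32, adjusted p = 0.037), and was lost with library totals in place of TMM, with the GC offset and the library number as a block (adjusted p = 0.053) and without GV1, CV1 or CV2 (adjusted p 0.0084 to 0.11 over the 8 omissions). Over both letters Scarb1 fell by 0.21 (SE 0.06, adjusted p = 0.031), with an adjusted p of 0.054 under the GC offset and a pass in 3 of the 8 omissions, those of GH2, GV2 and CH2. Without CH1 it was at -0.14 (adjusted p = 0.13), and with library totals at -0.15 (adjusted p = 0.1).

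Mylip and Lpcat3, both LXR targets in other tissues, did not pass the test in any comparison. Mylip encodes IDOL, a ubiquitin ligase that marks lipoprotein receptors for degradation, and had 2.56 and 1.65 CPM in GH and 1.90 and 2.52 CPM in GV, against 2.75 and 2.36 CPM in CH and 2.90 and 1.25 CPM in CV. Its log2 difference over both letters was -0.09 (95% interval -0.64 to 0.46), an interval wide enough to hold differences as large as that of Srebf1 over both letters with the GC offset. Lpcat3 encodes an enzyme that places polyunsaturated chains in phospholipids, and had 38.9 and 35.0 CPM in GH and 34.4 and 34.8 CPM in GV, against 38.0 and 38.1 CPM in CH and 39.1 and 36.4 CPM in CV. Its log2 difference over both letters was -0.08, with a 95% interval of -0.20 to 0.04, and with the GC offset the interval was -0.12 to 0.12.

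**Figure D3:**
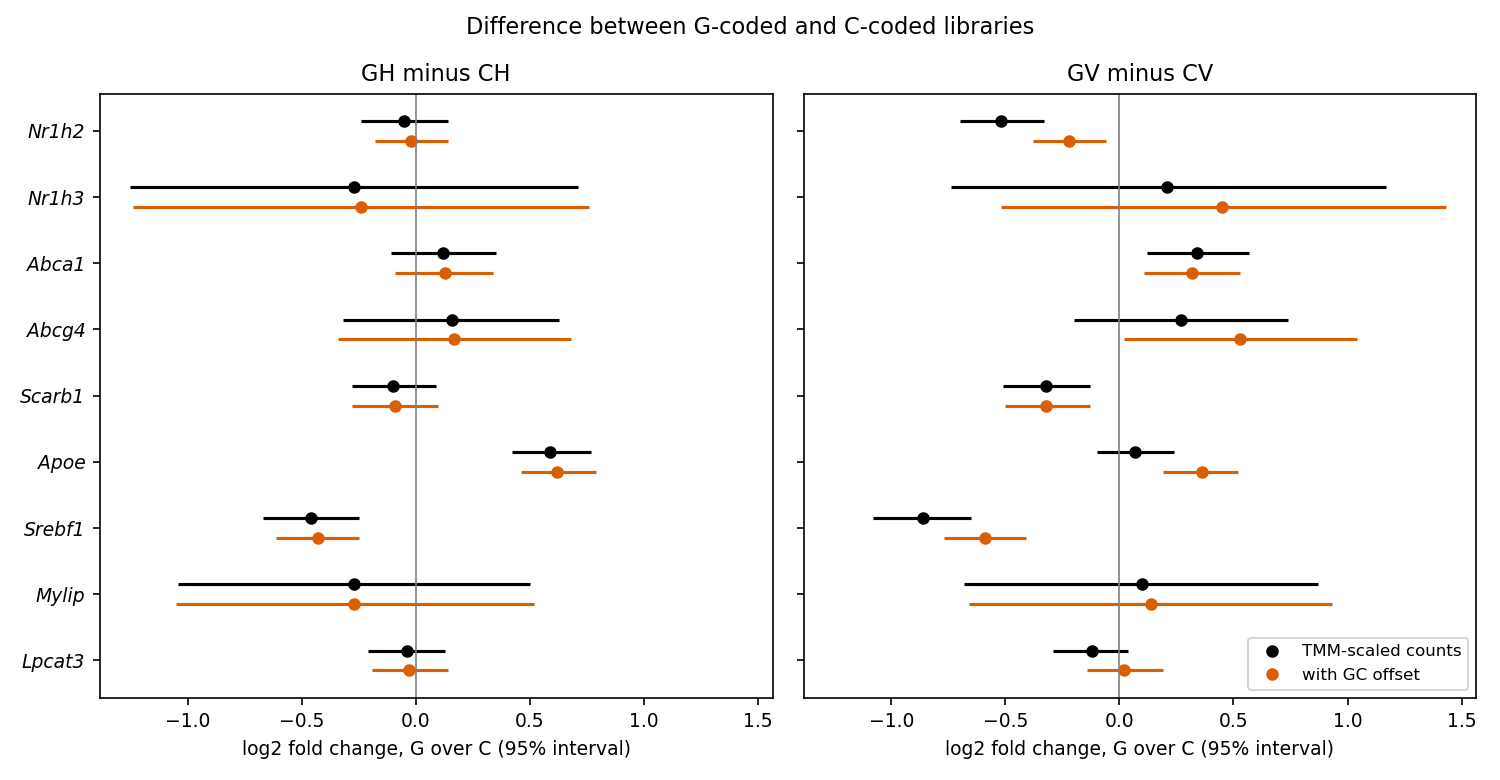
Log2 difference, G over C (x axis), with 95% intervals for 9 of the genes (rows; Abcg1 is left out for its low counts), for GH against CH (left) and GV against CV (right). Black shows TMM-scaled counts and orange the fit with a GC offset. On the left Apoe at 0.59 and Srebf1 at -0.46 stand apart from 0, and on the right the offset moves Srebf1 to -0.59 from -0.86, Nr1h2 to -0.22 from -0.52 and Apoe to 0.36 from 0.07.

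Within the C libraries, 1 of the 10 genes differed between H and V, where 10.7% of all genes tested did. Apoe was lower in CH than in CV by a log2 difference of -0.57 (SE 0.08, edgeR adjusted p = 0.0018), or -0.39 with the GC offset (SE 0.08, adjusted p = 0.015, beside 5.32% of all genes), and the call held in all 8 omissions. This comparison shares its CH libraries with that of GH against CH. S1pr1 was higher in CH than in CV by 0.40 (SE 0.12, adjusted p = 0.043). That call was lost with the GC offset (adjusted p = 0.064) and without GH1, GH2, CH1, CH2 or CV2 (adjusted p 0.027 to 0.31 over the 8 omissions), and the difference without CV2 was 0.23. Within the G libraries, 0 of the 10 genes passed between H and V in edgeR and in DESeq2, against 1.28% of all genes tested in edgeR, or 0.873% with the GC offset. At an unadjusted p below 0.05 there were 2 of them, beside 14.8% of all genes tested, Abca1 with a log2 difference of -0.31 (95% interval -0.54 to -0.09) and Nr1h2 with 0.22 (95% interval 0.03 to 0.41). Under the GC offset Abca1 was at -0.31 and Nr1h2 at 0.14 (95% interval -0.02 to 0.30), so 1 of the 10 had an unadjusted p below 0.05, beside 14% of all genes. For Apoe the difference between GH and GV was -0.05 (95% interval -0.22 to 0.12), or -0.13 with the GC offset (95% interval -0.29 to 0.04). This comparison also followed transcript length. With an offset for both GC content and length, Apoe was at -0.24 (95% interval -0.37 to -0.11, edgeR adjusted p = 0.11). Abca1 in that fit was at -0.24 as well (95% interval -0.48 to 0.00, adjusted p = 0.44).

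The difference between G and C depended on the letter for 2 of the 10 genes, against 7.35% of all genes tested. For Apoe the G minus C difference was larger under H than under V by 0.52 on the log2 scale (SE 0.11, edgeR adjusted p = 0.022), and for Nr1h2 by 0.47 (SE 0.12, adjusted p = 0.039). With the GC offset these were 0.27 (SE 0.11, adjusted p = 0.24) and 0.20 (SE 0.10, adjusted p = 0.38), so 0 of the 10 genes passed, beside 1.76% of all genes, with 1 of the 10 at an unadjusted p below 0.05. Without the offset the Apoe call was also lost without CH2, CV2, GH1, GH2 or GV1, and that of Nr1h2 without CH2, CV1, CV2, GH1, GH2 or GV1 and with the library number as a block.

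Other genes of the pathway were taken from 5 fixed lists with 56 genes, of which 47 passed the filter on low counts. Those that did not include Ch25h, the gene of cholesterol 25-hydroxylase, and Soat2. Between GH and CH, 0 of the 47 passed in edgeR (6 at an unadjusted p below 0.05, beside 13.6% of all genes) and 1 in DESeq2, and with the GC offset 1 passed in edgeR, Abca2 at 0.24 (adjusted p = 0.048). Between GV and CV 11 passed, 8 higher and 3 lower, against 25% of all genes tested, and the median log2 difference of the 47 was 0.01, beside -0.02 over all genes. With the GC offset 4 passed, all higher, beside 10.1% of all genes.

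The list on lysosomal cholesterol release, esterification and transport held 3 of those 4. Between GV and CV 4 of its 15 tested genes were higher and 1 lower. Abca5, a transporter of lysosomal membranes, had 17.8 and 14.2 CPM in GH and 22.0 and 21.5 CPM in GV, against 13.1 and 15.9 CPM in CH and 12 and 11.5 CPM in CV. Its log2 difference was 0.89 in GV against CV (SE 0.12, edgeR adjusted p = 0.00053) and 0.58 with the GC offset (SE 0.11, adjusted p = 0.0074). Nceh1, which hydrolyses cholesteryl esters, was higher by 0.47 (SE 0.07, adjusted p = 0.00058) and Stard4, which carries sterol between membranes, by 0.37 (SE 0.06, adjusted p = 0.0012). With the GC offset Nceh1 was at 0.34 (adjusted p = 0.004), and Stard4 at 0.22 (adjusted p = 0.022). Gramd1c at 0.55 and Gramd1a at -0.24, genes of sterol transfer proteins at membrane contacts, passed without the offset and not with it. Over both letters and with the offset, where 10.7% of all genes passed, 5 of the 15 were higher and 0 lower (Abca5, Nceh1, Abca2, Stard4 and Npc2, from 0.35 to 0.14), with a list median of 0.14 beside 0.01 for all genes. At an unadjusted p below 0.05 there were 8 of the 15 in that fit, beside 25.4% of all genes.

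The remaining lists held single genes in both directions. Of the lipoprotein receptor list, Cd36 (log2 0.77, a scavenger receptor) and Vldlr (0.30, a receptor for apolipoprotein E particles) were higher in GV than in CV. Vldlr is a substrate of the ligase that Mylip encodes. Of the other reported LXR targets, Elovl5 (0.30) and Insig2 (0.27) were higher and Fasn, the fatty acid synthase gene, was lower (-0.41). Of the receptor partners and co-regulators, Rxra (-0.32), the gene of a nuclear receptor that pairs with the LXRs, was lower. Of the 5 tested oxysterol enzyme genes, 0 passed in edgeR and in DESeq2, with 1 at an unadjusted p below 0.05. Of the 6 genes named here, Elovl5 also passed with the GC offset (0.18, edgeR adjusted p = 0.043) and the others did not. Scd1 and Nrip1 passed only over both letters, at 0.12 and 0.16, and not with the offset.

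**Figure D4:**
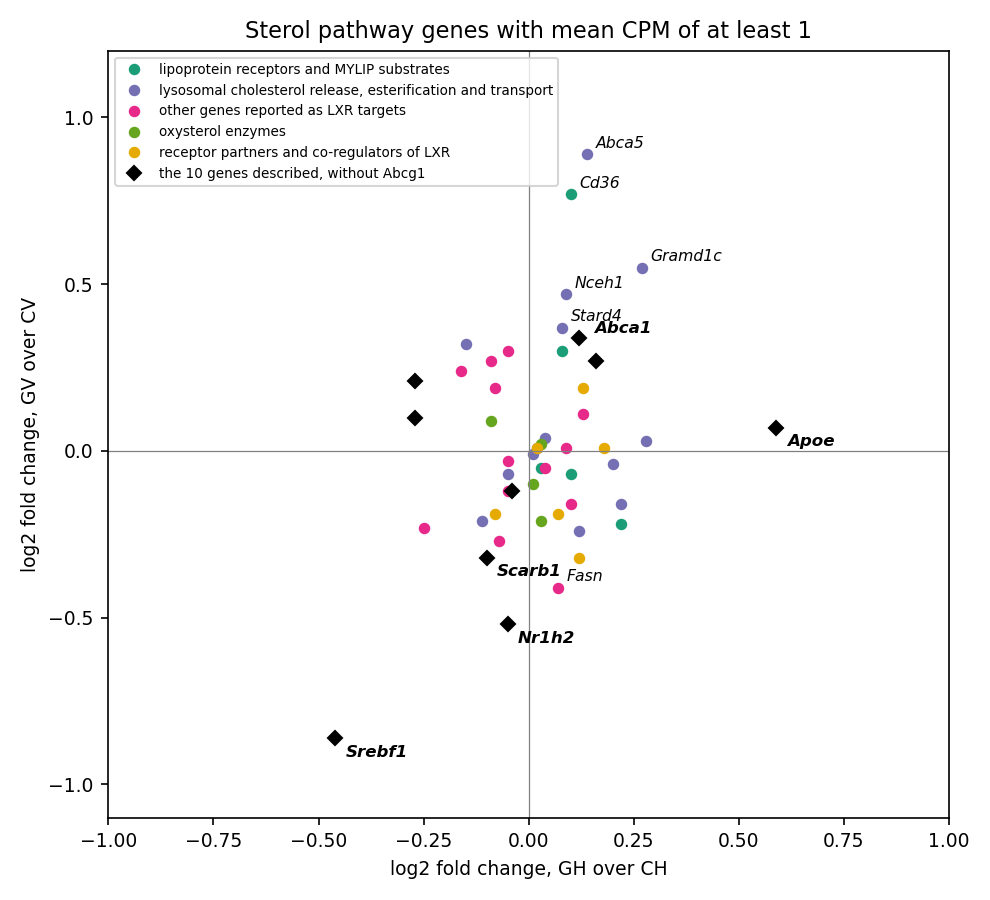
Log2 difference of GV over CV (y axis) against that of GH over CH (x axis) for pathway genes with a mean of at least 1 CPM, coloured by list, with 9 of the 10 genes described as black diamonds. The values on the 2 axes come from different libraries. Abca5 at 0.89 and Srebf1 at -0.86 are the highest and lowest values plotted on the y axis, and Apoe at 0.59 and Srebf1 at -0.46 those on the x axis.

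Between CH and CV, 10 of the 47 list genes passed, 3 higher and 7 lower, beside 10.7% of all genes tested. Lrp1 (-0.51), Abca2 (-0.43), Fasn (-0.38), Rxra (-0.36), Ncoa1 (-0.29), Ncoa6 (-0.29) and Fads1 (-0.23) were lower in CH, and Insig2 (0.41), Smpdl3a (0.34) and Elovl5 (0.30) were higher. With the GC offset 6 passed (5.32% of all genes), Lrp1 at -0.36, Ncoa1 at -0.30, Abca2 at -0.27 and Fasn at -0.23, with Insig2 at 0.35 and Elovl5 at 0.21. Between GH and GV, 0 of the 47 passed in edgeR (7 at an unadjusted p below 0.05, beside 14.8% of all genes) and 0 in DESeq2. The interaction passed for 6 of the 47, beside 7.35% of all genes tested, Fasn at 0.48, Abca2 at 0.37, Gramd1a at 0.35, Elovl5 at -0.35, Nceh1 at -0.38 and Abca5 at -0.75. After the offset 0 of the 47 passed in edgeR (1.76% of all genes), with 5 at an unadjusted p below 0.05 (16% of all genes).

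The genes whose log2 CPM followed Srebf1 most closely over the 8 libraries, among 11262 genes with a mean of at least 5 CPM, were Mcm6 (Pearson r 0.992), Mta2 (0.990), Pithd1 (0.990), Plk1 (0.988) and Ptpa (0.987). For Apoe they were Frmpd1 (0.977), Gdpd2 (0.973), Pde2a (0.971), Zbtb4 (0.968) and Phyh (0.965). All these correlations are over the same 8 libraries and their GC trend and are given as a description. Plk1, for example, had 59.7 and 62.2 CPM in GH and 51.9 and 59.9 CPM in GV, against 73.8 and 68.8 CPM in CH and 84.3 and 81.3 CPM in CV, the same order of groups as Srebf1. Pde2a had 69.1 and 63.3 CPM in GH and 71.3 and 78.9 CPM in GV, against 49.0 and 46.5 CPM in CH and 68.0 and 70.9 CPM in CV, and was likewise lowest in CH.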

How the data were processed

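RNA was extracted with a column kit, and libraries were made from total RNA with a strand-marking kit after removal of ribosomal RNA, as the labels' protocols state. StringTie 2.1.3b, HISAT2 2.1.0, Trimmomatic and bcl2fastq 2.20.0 are listed, with the builds GRCm38 and mm10, in the submitters' processing notes. The authors' filters are not given in the sources. Of the 24 value columns, the 8 columns of read counts per gene deposited by the authors were used, and 16 columns of FPKM and TPM were not.

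Counts were fitted in edgeR 4.0.16 (R 4.3.3) with its quasi-likelihood test, TMM scaling, filterByExpr (minimum count 10) and a term per code. Benjamini-Hochberg adjustment ran over 17644 genes, with a threshold of 0.05. CPM are counts scaled to library size after TMM, and log2 differences have the group named first on top. Marker CPM, single or summed, were instead scaled to library totals without TMM. Levels per kb used the union of exons in the basic GENCODE annotation, and GC content the longest transcript of the full GENCODE set, which can be longer than that union. GC content was known for 88.8% of the genes tested, and the offset came from lowess curves over 10141 genes. Alternatives included DESeq2 1.42.0, other scaling, no filter, a block for the library number and leaving out each library. Replicates of a code were not duplicates (chi-square per degree of freedom 5.21 to 13.5), and total counts of 39619305 to 45698186 per library set the counting precision.

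Named genes were the 10 genes, S1pr1, genes of 5 fixed lists that passed the test (up to 5 per list and comparison) and the 5 genes most correlated with Srebf1 and with Apoe. Of the 59 list genes, 3 are not reported here and were left out of the lists' counts, but not of the fit. The genes and lists were chosen with earlier results of these data known.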

Additional observations from a re-analysis of the deposited data

Results flagged for a closer look

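The difference between G and C libraries depended on the letter for Apoe (interaction 0.52 on the log2 scale, edgeR adjusted p = 0.022) and for Nr1h2 (0.47, adjusted p = 0.039). Both were lost with the GC offset, and the cause was not tested.

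Lpcat3 in library GH1, at 38.9 CPM, stood apart from the other 3 G libraries (34.4 to 35.0 CPM). Its gap to the nearest of them was 0.883 of the range of the group. Chance flags about 1 in 20 groups in this way. Each of the genes described and S1pr1 was screened, in G and in C, so a flag among them is not unusual.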

How the results depend on the processing

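Among the 14 calls of the 10 genes, RLE scaling and dropping the low-count filter kept all 14 on the same side of the threshold, DESeq2 kept 13, library totals 11, the replicate block 11, the GC offset 7, the GC and length offset 8 and the GC offset with the block 6. Apoe between GV and CV passed newly under each GC setting. No shared effect of the library number was seen over all genes, as deviations of libraries with the same number correlated between -0.05 and 0.01. The labels do not say whether samples with the same number were paired. Calls lost with the block were Srebf1 for GH against CH (adjusted p = 0.063), Abca1 over both letters and the Nr1h2 interaction.

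Calls over all genes for GH against CH were 320, and became 542 in DESeq2, 552 without the filter, 203 with the block and 633 with the GC and length offset. For GV against CV 4408 became 1788, 2067 and 1625 with the GC, the GC and length, and the GC and block settings. Over both letters 3387 became 1885 (GC) and 1692 (GC and block). For CH against CV 1883 became 938 and 798 under the same settings. For GH against GV 226 became 532 in DESeq2, 575 without the filter, 137 with library totals, 137 with the block, 105 with GC and length, 121 with GC and block and 31 with only the compared libraries. For the interaction 1296 became 310 (GC), 491 (GC and length) and 254 (GC and block). Leaving out each library gave 45 to 415, 1950 to 4444, 1585 to 3391, 255 to 2169, 8 to 843 and 56 to 1450 in the same order. Scaling moved the split of these calls. With library totals they were 193 higher and 136 lower for GH against CH (134 and 186 with TMM), 2543 and 1044 over both letters (1594 and 1793) and 99 and 38 for GH against GV (202 and 24, and 394 and 138 in DESeq2). For the interaction they were 601 and 879 with library totals and 760 and 1035 in DESeq2 (694 and 602 with TMM).

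Sign changes were limited to values that had not passed the test. Under GC settings, Lpcat3 was 0.02 for GV against CV, 0 over both letters with GC and length, and -0.05 or -0.04 for the interaction. Nr1h3 was 0.11 over both letters (0.03 with library totals) and 0.12, 0.08 and 0.13 for CH against CV, and Lpcat3 there was -0 with library totals. Leaving out each library gave these log2 ranges across 0. For GH against CH they were -0.08 to 0.45 (Abcg4), -0.63 to 0.01 (Mylip), -0.10 to 0.01 (Nr1h2), -1.17 to 0.27 (Nr1h3), -0.22 to 0.03 (Scarb1) and -0.12 to 0.03 (Lpcat3). For GV against CV they were -0.03 to 0.18 (Apoe), -0.40 to 0.82 (Mylip) and -0.25 to 0.57 (Nr1h3). Over both letters they were -0.33 to 0.27 (Mylip), -0.47 to 0.24 (Nr1h3) and -0.01 to 0.18 (S1pr1). For CH against CV they were -0.19 to 0.01 (Abca1), -0.26 to 0.31 (Abcg4), -0.19 to 1.02 (Mylip), -0.22 to 0.21 (Nr1h3) and -0.04 to 0.06 (Lpcat3). For GH against GV they were -0.77 to 0.68 (Abcg1), -0.22 to 0.03 (Abcg4), -0.14 to 0.02 (Apoe), -0.43 to 0.21 (Mylip), -1.42 to 0.04 (Nr1h3), -0.02 to 0.15 (Scarb1) and -0.08 to 0.06 (S1pr1). For the interaction they were -0.39 to 0.18 (Abcg4), -1.09 to 0.12 (Mylip), -1.40 to 0.06 (Nr1h3) and -0.01 to 0.16 (Lpcat3). The cause of these changes was not tested. A code left with 1 library was assumed to vary like the others, and Abcg1, Nr1h3 and Mylip are limited by low counts.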
